A study of Mus musculus with 3 samples.

Results

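The 40 genes described here code for proteins that bring new chains into the endoplasmic reticulum (ER), fold and glycosylate them there, and report when folding falls behind. They were taken as a list by name, drawn up with earlier results of these data known, and all 40 were found among the 27998 genes counted in each library. They were measured as UMIs (unique molecular identifiers, each standing for 1 captured transcript) by 10x 3′ single-cell RNA sequencing of bone marrow cells sorted for CD133 from C57BL/6 mice. There were 3 libraries, 1 for each label, each made from the pooled cells of 3 mice: young (labelled 3 months), old (labelled 27 months, but 18.5 months in the design text) and Ctrl, called control here (labelled 3 months). No treatment or allele is given for any of them, what sets Ctrl apart from young is not stated in the labels, and the design text names the intestine where the sample labels name bone marrow. With 1 library per label, no test between the labels was possible. The question asked is whether these genes follow the making of granule proteins, read from *Mpo* (myeloperoxidase, the main azurophil granule enzyme), so cells of each library were put into 5 bands of *Mpo* per 10000 UMIs of the cell: under 1, 1 to under 4, 4 to under 16, 16 to under 64, and 64 or more.

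A secretory or granule protein enters the ER through the Sec61 channel while it is being made. TRAP helps the chain through, signal peptidase cuts off its leader, and oligosaccharyltransferase hangs the first sugar chain on it. Chaperones such as Hspa5 (BiP), Hsp90b1 and calreticulin and the protein disulfide isomerases then fold it, and coat vesicles carry it on to the Golgi. When unfolded chains build up, 3 sensors in the ER membrane (Ire1, Perk and Atf6) switch on the unfolded protein response, which raises chaperones through Xbp1 and Atf6 and, through Atf4 and Ddit3 (CHOP), amino acid supply and cell death genes. Granule enzymes such as myeloperoxidase and elastase are glycosylated proteins made in bulk at the promyelocyte stage, early in the making of a neutrophil.

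After the limits on cell quality and the setting aside of other blood cells, 6576 young, 9572 old and 9532 control cells remained, with 67490934, 118407732 and 94130852 UMIs. *Prom1*, the gene of CD133, was at 47.2 CPM (UMIs of the gene per 1e+06 UMIs) in young, 45.9 in old and 52.1 in control. The endothelial gene *Cdh5* was at 0.0593, 0 and 0.0106 CPM, with 4, 0 and 1 UMIs, while the 4 specific granule genes *Ltf*, *Camp*, *Ngp* and *Lcn2* made up 12.3%, 10.6% and 12.2% of all UMIs, so the kept cells carried the transcripts of the neutrophil series. The highest *Mpo* band held 16.1% of young, 6.00% of old and 9.66% of control cells. B progenitors and NK and T cells of the young and old libraries, which should lack *Mpo*, had medians of 2.51 and 3.26 *Mpo* UMIs per 10000 at median depths of 6804 and 7366 UMIs. In control, B progenitors had a median of 3.99 at a median depth of 4492 UMIs, and the erythroid groups of young and old had 3.95 and 3.90. The lowest 2 bands thus lie at a level also seen in cells that should not express it and were not read as expression. These medians lie just under 4, so part of the 3rd band may be at that level too. Cells with a median of 8708, 10863 and 7493 UMIs made up the lowest band and cells with 12182, 15032 and 13273 the highest. The libraries shared 120 to 161 cell barcodes by pairs. A doublet caller (Scrublet) marked 8, 310 and 3 cells of young, old and control, too few in young and control to be relied on, and no doublets were removed.

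The 40 genes together rose with *Mpo* in every library. In the lowest band they summed to 3861, 4536 and 5095 CPM in young, old and control, and in the highest to 14467, 15614 and 17509.8. In share of all UMIs this was 0.386, 0.454 and 0.509% against 1.45, 1.56 and 1.75%. The sums of every highest band lay above those of every other band, and the fold was 3.75 in young, 3.44 in old and 3.44 in control, or 3.54 ± 0.18 (SD, n = 3). The bands under 16 differed little, at 3935, 4484 and 5094 CPM in the 2nd and 4356, 5155 and 5449 in the 3rd. A larger step came at the 4th, with 8070.2, 9351 and 10729.8. Over single cells, the share of the 40 genes had a median of 37.5, 42.4 and 48.6 UMIs per 10000 in the lowest band and 140, 152 and 172 in the highest. The 10th percentile of the highest band (96.6, 114 and 121) was above the 90th of the lowest (49.3, 64.9 and 69.3) in each library, so the shift was not confined to a few cells of the highest band. Spearman's rho between this share and *Mpo* over the cells of a library was 0.64, 0.55 and 0.54, a description over cells that also share depth, whose rho with the gene share was 0.38, 0.39 and 0.35.

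**Figure D1:**
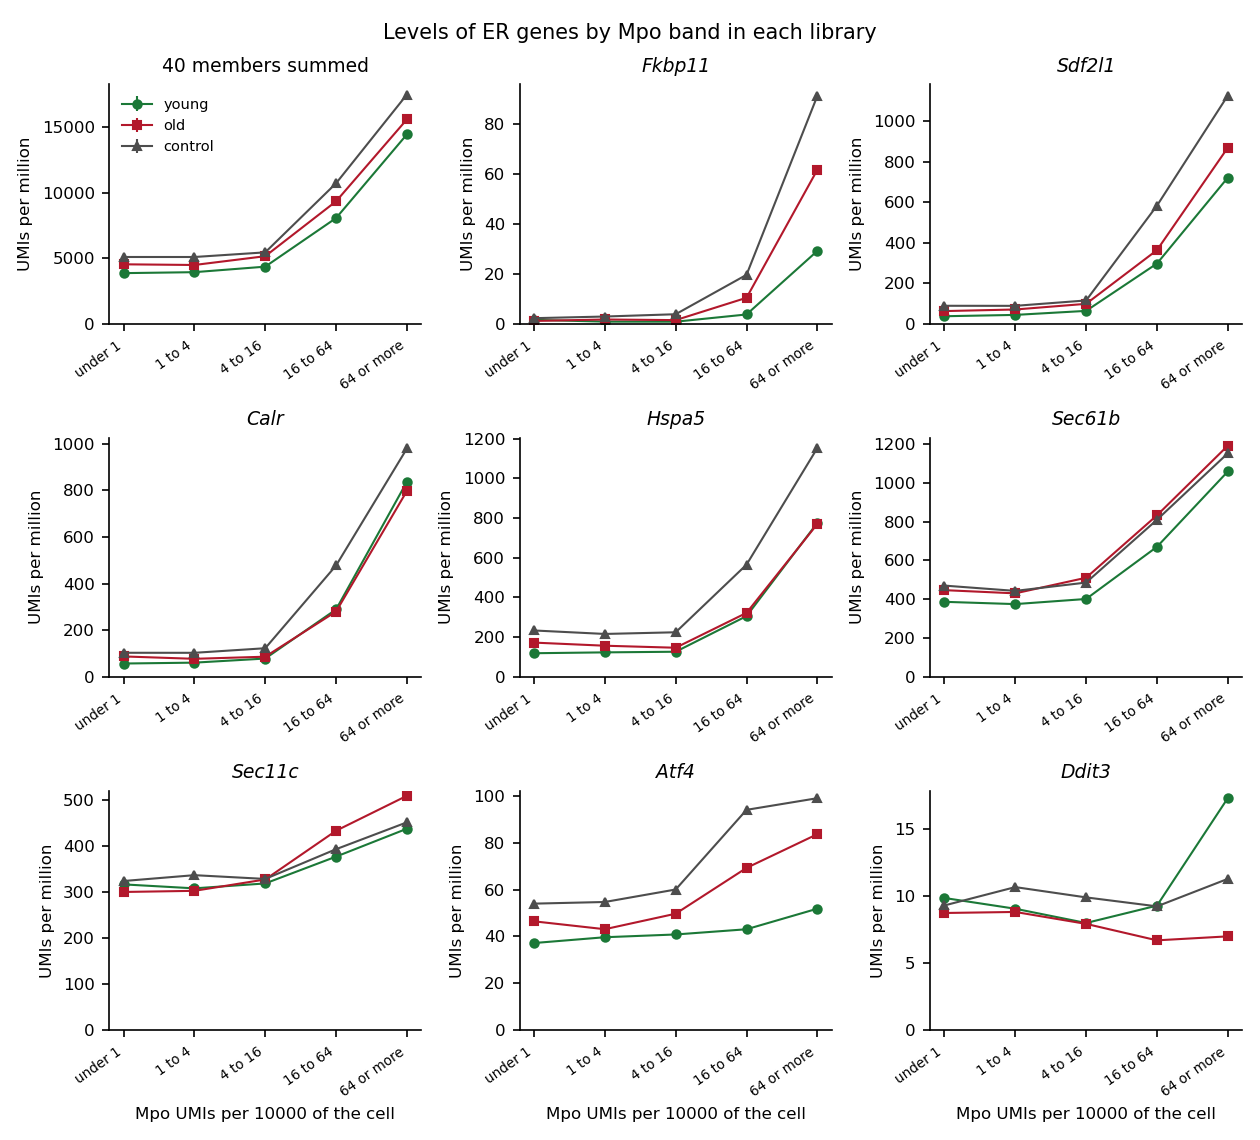
Level of the 40 genes summed, and of 8 of them, in CPM (vertical axis, from 0) against the band of Mpo UMIs per 10000 (horizontal axis), with a line for each library; error bars on the sums are 95% counting intervals and lie within the symbols. The summed level is flat over the 3 lower bands and rises over the upper 2 in all 3 libraries, and Ddit3 does not share this course.

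**Figure D2:**
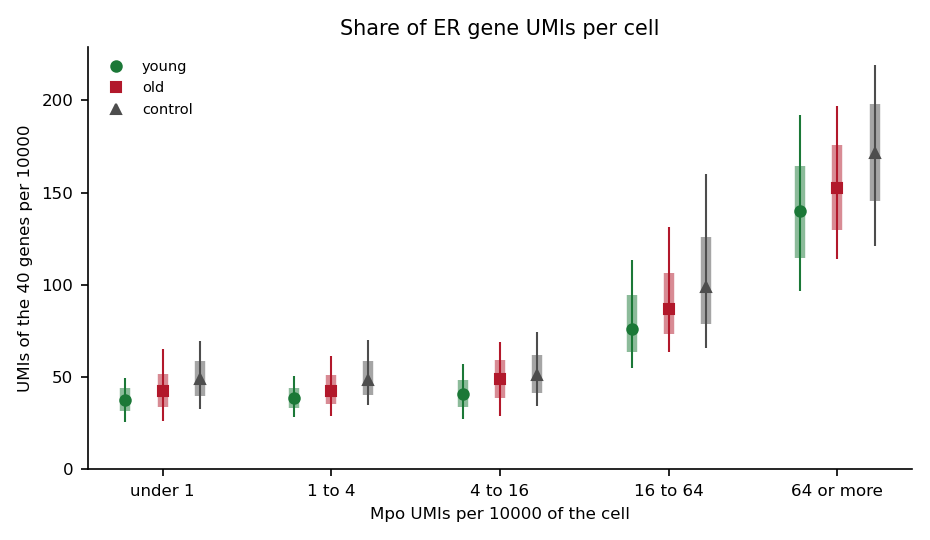
UMIs of the 40 genes per 10000 UMIs of a cell (vertical axis) by Mpo band (horizontal axis) and library, with the median over cells as a symbol, the 25th to 75th percentiles as a thick bar and the 10th to 90th as a thin line. The whole range moves up in the upper 2 bands.

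Specific granule and S100a8 and S100a9 transcripts fill much of a cell of the lowest band. The last pair made up 28.6, 28.3 and 28.1% of UMIs there and 7.41, 6.39 and 6.52% in the highest. Shares of all UMIs rise for most other genes when those fall. The fitted differences below therefore use TMM scaling, which sets the bulk of genes level, and edgeR's quasi-likelihood test over the 15 sums of library and band with the library as a term. A gene was called at a Benjamini-Hochberg adjusted p under 0.05 over all 10567 genes tested and a difference of at least 1.5 times (0.585 on the log2 scale). All 40 genes passed the filter on low counts. Between the highest and the lowest band 30 of the 40 were higher, 0 lower and 10 neither, against 25.5% of all genes higher and 27.3% lower. The median of the 40 was 1.02 on the log2 scale and that of all genes -0.04. With library size alone as the scale, 38 of the 40 were higher and 0 lower, against 52.4% and 10.5% of all genes, since that scale moved the median of all genes to 0.70. In CPM, 39 of the 40 were above their lowest band in the highest band of all 3 libraries. That was not counted over all genes, whose median was 0.70 on that scale. By a stricter count, 37 of the 40 had every highest-band value above every value of the lowest 3 bands, which was also so for 5361 of the 10567 genes tested. The p-values rest on how far the band differences vary among 3 libraries, each 1 pool of mice, once the library term is taken out. They do not measure the spread between mice.

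**Figure D3:**
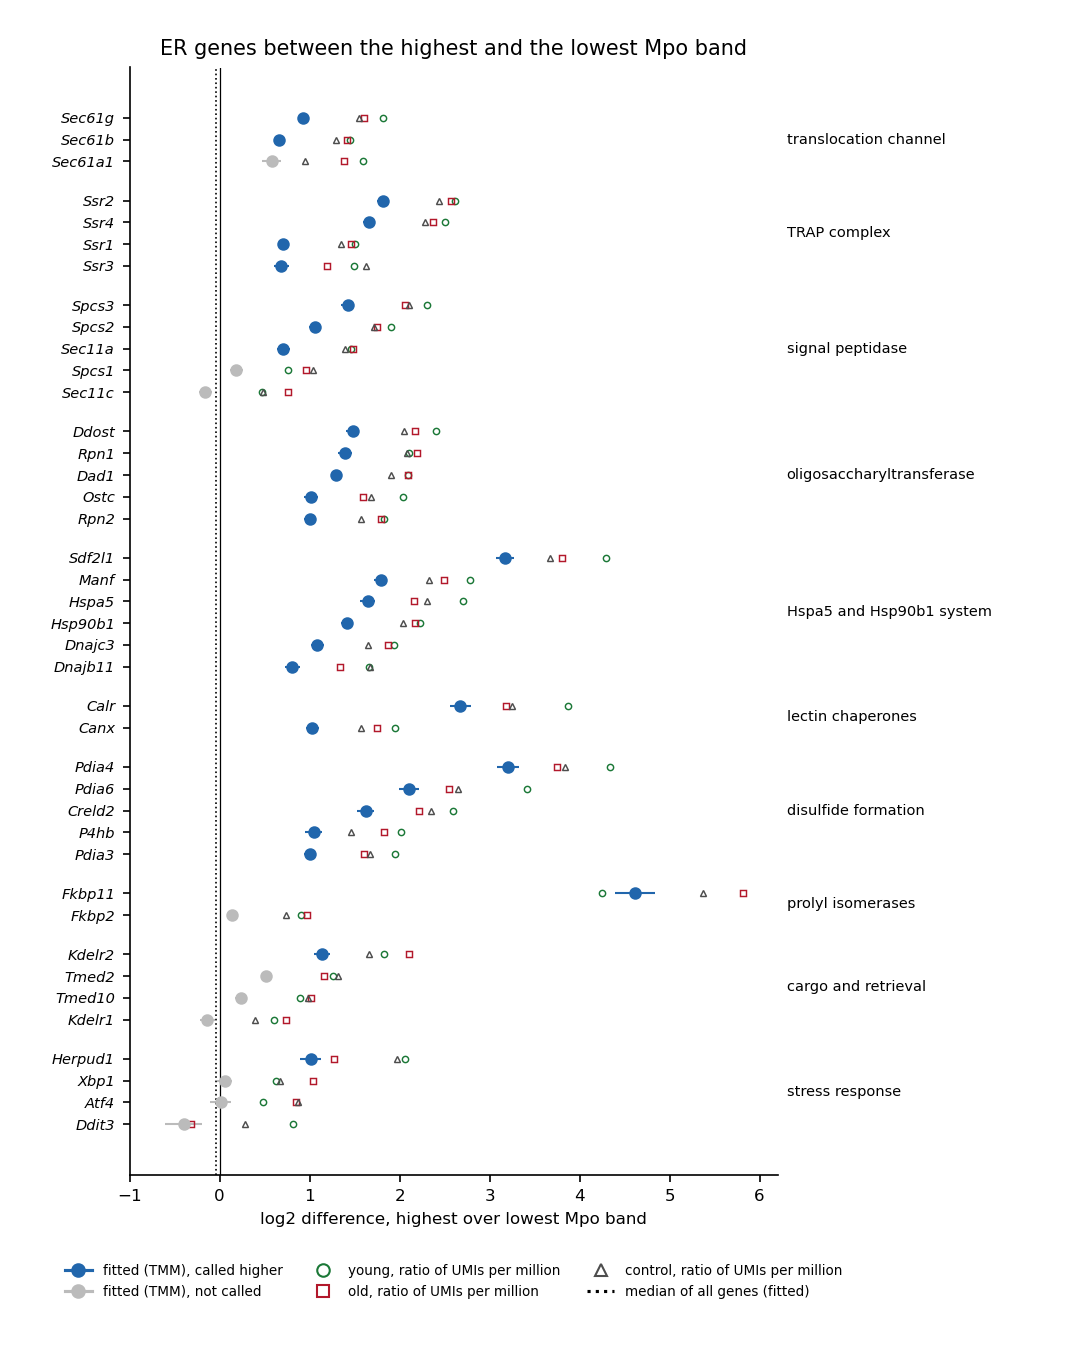
Difference between the highest and the lowest Mpo band on the log2 scale (horizontal axis) for each of the 40 genes, ordered by role: filled circles are fitted values on the TMM scale with their SE (blue, called higher), and open symbols the ratio of CPM in each library. The open symbols lie to the right of the fitted ones for most genes because the 2 scales differ.

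Among the chaperones around Hspa5 all 6 genes were higher, with a median of 1.53. *Hspa5*, the main Hsp70 of the ER lumen, was at 119, 173 and 234 CPM in the lowest band of young, old and control and at 776, 771 and 1153 in the highest, which do not overlap. Its fitted log2 difference was 1.64 ± 0.09 (SE, adjusted p = 7.71e-12). *Sdf2l1*, a lumenal partner of Hspa5 and its cochaperones, went from 36.7, 62.3 and 88.5 CPM to 722, 871 and 1128, the steepest of the group at 3.17 ± 0.10 (SE, adjusted p = 7.50e-15). *Dnajb11*, an Hsp40 that hands chains to Hspa5, was the least steep at 0.81 ± 0.08 (SE, adjusted p = 8.08e-08), from 56.2, 86.9 and 83.3 CPM to 177, 219 and 265. *Hsp90b1* (Grp94), the Hsp90 of the ER, rose by 1.41 ± 0.07 (SE), *Manf*, a small lumenal protein that binds Hspa5, by 1.79 ± 0.07 and *Dnajc3*, another Hsp40, by 1.08 ± 0.07. *Manf* is overlapped on its own strand by *Rbm15b* in the GENCODE M21 annotation, and *Hsp90b1*, *Pdia4*, *Sec11a*, *Ostc*, *Tmed10* and *Ddit3* are likewise overlapped on their own strand by another annotated gene, so reads of such pairs may be mixed.

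Promoters of ER chaperones are known for the ER stress response element (ERSE), to which Atf6 and Xbp1 bind with NF-Y, and RefSeq promoters (GRCm38.p6, 250 bases before to 50 after each start) were therefore searched on both strands. The promoter table used here held 32 of the 40 genes. The full element (CCAAT, 9 bases of any kind, CCACG) was found in 7 of the 32 (21.9%), against 37 of all 27025 genes with a promoter (0.137%) and 2 of 73 (2.74%) of the ER genes outside the list. All 7 were among the 25 matched genes called higher, and 0 of the 7 matched genes not called had it. ERSE-II (ATTGG, 1 base of any kind, CCACG) was in 2 of the 32 (6.25%, all genes 0.0444%), *Herpud1* and *Dnajb11*. The Xbp1 element UPRE (TGACGTGG) was in 0 of the 32, 7 of the 73 outside the list (9.59%) and 0.714% of all genes. The CCAAT box alone, which every ERSE holds, was in 25 of the 32 (78.1%, all genes 41.1%). A match describes these letters and shows no binding, and no match says only that the letters are not in this window. All ERSE and ERSE-II matches among the 32 are shown, each read 5′ to 3′ on the strand of the element with its fixed bases in capitals. Whether they bear on the rise was not tested.
Hspa5 (chr2:34772025-34772043, plus strand): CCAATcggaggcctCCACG
Hsp90b1 (chr10:86705638-86705656, minus strand): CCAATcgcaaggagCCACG
Hsp90b1 (chr10:86705533-86705551, plus strand): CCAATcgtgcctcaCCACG
Dnajc3 (chr14:118937827-118937845, plus strand): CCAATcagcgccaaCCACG
Calr (chr8:84847075-84847093, plus strand): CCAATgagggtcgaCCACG
Canx (chr11:50325800-50325818, minus strand): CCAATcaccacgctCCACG
Pdia6 (chr12:17266491-17266509, plus strand): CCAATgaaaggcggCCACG
Creld2 (chr15:88819520-88819538, minus strand): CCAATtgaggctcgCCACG
Herpud1, ERSE-II (chr8:94386377-94386387, plus strand): ATTGGgCCACG
Dnajb11, ERSE-II (chr16:22857852-22857862, plus strand): ATTGGcCCACG

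The 250 bases before the start of 3 genes show the element in place. *Hspa5* and *Calr* hold 1 full match each, at positions -65 to -47 and -162 to -144 from the start (-1 being the last base before it), the latter on the strand opposite to the gene, so that its complement stands in capitals. Copies that differ from the element at any fixed base were not searched for and may be present. *Sdf2l1*, among the steepest of the 40, holds no full match and is shown for that contrast, though its CCAAT boxes can be read in it.
Hspa5 (chr2:34771840-34772089, plus strand): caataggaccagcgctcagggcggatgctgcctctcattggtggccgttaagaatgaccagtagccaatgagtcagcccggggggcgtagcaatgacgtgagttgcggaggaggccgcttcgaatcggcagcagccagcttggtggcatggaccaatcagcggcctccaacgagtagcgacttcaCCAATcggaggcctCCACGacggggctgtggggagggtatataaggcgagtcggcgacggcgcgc
Calr (chr8:84846932-84847181, minus strand): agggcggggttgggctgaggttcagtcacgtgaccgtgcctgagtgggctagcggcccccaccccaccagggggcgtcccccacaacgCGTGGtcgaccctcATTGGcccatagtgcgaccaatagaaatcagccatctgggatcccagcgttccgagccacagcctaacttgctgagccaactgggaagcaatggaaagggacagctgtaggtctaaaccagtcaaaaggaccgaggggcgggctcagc
Sdf2l1 (chr16:17132384-17132633, minus strand): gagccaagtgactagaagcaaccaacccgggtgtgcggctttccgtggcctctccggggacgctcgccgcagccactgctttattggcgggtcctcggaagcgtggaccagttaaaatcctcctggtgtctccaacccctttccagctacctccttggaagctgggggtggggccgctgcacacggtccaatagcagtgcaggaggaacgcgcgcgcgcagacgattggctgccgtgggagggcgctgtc

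Both lectin chaperones, which hold glycosylated chains until they are folded, were higher. *Calr* (calreticulin, chromosome 8, 84841850 to 84846934, minus strand) was at 57.3, 87.7 and 103 CPM in the lowest band and at 837, 797 and 979 in the highest, a fitted difference of 2.67 ± 0.11 (SE, adjusted p = 3.89e-13). *Canx* (calnexin), its membrane-bound relative, rose from 57.1, 52.0 and 70.9 CPM to 221, 174 and 209.9, with 1.03 ± 0.07 (SE, adjusted p = 3.12e-10). Within each library the ratio of CPM was thus 3.87, 3.18 and 3.24 for *Calr* and 1.95, 1.74 and 1.57 for *Canx* on the log2 scale.

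All 5 genes of disulfide formation were higher, with a median of 1.63. *Pdia4* (ERp72, chromosome 6, 47796141 to 47813430, minus strand), a disulfide isomerase, was low in the lowest band, at 7.22, 10.0 and 12.95 CPM. It was at 146, 135 and 186 in the highest band, a fitted difference of 3.20 ± 0.12 (SE, adjusted p = 7.97e-14). *Pdia3* (ERp57), the isomerase that works with calreticulin and calnexin, had the smallest difference of the 5 at 1.01 ± 0.07 (SE, adjusted p = 2.07e-10), from 171, 199 and 214 CPM to 659, 603 and 680.2. *Pdia6* rose by 2.1 ± 0.11, *Creld2* by 1.63 ± 0.09 and *P4hb*, the classical disulfide isomerase, by 1.04 ± 0.10. All 5 had every highest-band value above every lowest-band value. That is common on the CPM scale, where 5361 of the 10567 genes tested had every highest-band value above all of the lowest 3 bands.

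Of the 2 prolyl isomerases, which turn proline bonds in folding chains, 1 was higher. *Fkbp11* (chromosome 15, 98724366 to 98728198, minus strand) was close to absent from the lowest band, at 1.53, 1.09 and 2.20 CPM on 7, 10 and 9 UMIs. It was at 29.2, 61.7 and 91.2 CPM in the highest band. Its fitted difference, 4.62 ± 0.23 (SE, adjusted p = 2.24e-12), was the steepest of the 40, and its ratios of 4.25, 5.82 and 5.37 also varied most between libraries. *Fkbp2* (FKBP13) went from 142, 142 and 169.9 CPM to 266, 280.0 and 284 and at 0.14 ± 0.06 (SE, adjusted p = 0.0329) stayed under the limit of size.

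The entry machinery moved in part. Of the Sec61 channel, *Sec61g* (gamma subunit) was at 409.9, 541 and 528 CPM in the lowest band and at 1443, 1647 and 1549.5 in the highest, a difference of 0.93 ± 0.06 (SE, adjusted p = 1.32e-10). *Sec61b* (beta subunit) rose by 0.66 ± 0.06. *Sec61a1*, which forms the pore itself, went from 19.2, 15.8 and 29.3 CPM to 58.1, 41.2 and 56.8 and its 0.58 ± 0.10 (SE, adjusted p = 7.88e-05) fell just under the limit of 1.5 times, which it passed under 13 of the 19 other settings tried. All 4 TRAP genes were higher, from *Ssr2* at 1.81 ± 0.06 (SE, adjusted p = 2.94e-14) and *Ssr4* at 1.66 ± 0.07 down to *Ssr1* at 0.71 ± 0.06 and *Ssr3* at 0.68 ± 0.09 (SE, adjusted p = 9.29e-07). *Ssr2* was at 64.7, 71.7 and 88.2 CPM against 398, 427 and 478, and *Ssr3* at 45.3, 51.5 and 45.7 against 127, 118 and 141. Differences between subunits of a complex were not tested.

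Of the 5 signal peptidase genes 3 were higher. *Spcs3*, a glycosylated accessory subunit, rose from 32.2, 34.6 and 41.3 CPM to 158, 144 and 178, with 1.42 ± 0.07 (SE, adjusted p = 2.93e-12). *Sec11c*, 1 of the 2 catalytic subunits, was at 317, 300.0 and 324 CPM and 437, 509 and 451, and its fitted -0.16 ± 0.07 (SE, adjusted p = 0.0482) was below 0 though its CPM was higher in the highest band of each library. *Sec11a*, the other catalytic subunit, rose by 0.71 ± 0.07 and *Spcs2* by 1.06 ± 0.06, while *Spcs1* had 0.19 ± 0.07 (SE, adjusted p = 0.0215).

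All 5 oligosaccharyltransferase genes were higher and close together, between 1.0 and 1.48. *Ddost* (OST48) was at 71.1, 86.2 and 88.0 CPM in the lowest band and at 378, 387 and 363 in the highest, with 1.48 ± 0.07 (SE, adjusted p = 1.20e-12). *Rpn2* (ribophorin II) went from 63.0, 65.8 and 69.2 CPM to 223, 228 and 205, with 1.0 ± 0.07 (SE, adjusted p = 2.14e-10). *Rpn1*, *Dad1* and *Ostc* lay between them at 1.39, 1.30 and 1.02.

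Of the 4 genes of cargo and retrieval only *Kdelr2*, a receptor that returns escaped chaperones to the ER, was called. It was at 59.9, 56.8 and 67.5 CPM in the lowest band and at 213, 244 and 213 in the highest, with 1.14 ± 0.09 (SE, adjusted p = 1.21e-09). Its paralogue *Kdelr1* was at 34.6, 31.4 and 35.9 CPM against 52.7, 52.3 and 47.1, and its fitted -0.14 ± 0.08 (SE, adjusted p = 0.148) was below 0 on the TMM scale and 0.60, called higher, with library size alone. The p24 cargo receptors *Tmed2* and *Tmed10* had 0.52 ± 0.06 and 0.23 ± 0.06, under the limit of size.

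Of the 4 stress response genes 1 was higher. *Herpud1*, an ER membrane protein of the degradation machinery and a target of the response, was at 28.4, 31.8 and 30.1 CPM in the lowest band and at 119, 76.9 and 118 in the highest, a difference of 1.01 ± 0.12 (SE, adjusted p = 4.13e-07). *Xbp1*, the transcription factor that Ire1 activates by splicing, was at 117, 149.8 and 188 CPM against 181, 308 and 300.3, with 0.06 ± 0.08 (SE, adjusted p = 0.559). Spliced and unspliced *Xbp1* cannot be told apart in counts of the 3′ end. *Atf4*, the factor downstream of Perk, which is controlled mostly in translation, was at 37.2, 46.5 and 54.0 CPM against 51.9, 83.7 and 99.0, with 0.01 ± 0.12 (SE, adjusted p = 0.936). On library size alone *Xbp1* and *Atf4* were called higher at 0.79 and 0.74, close to the 0.70 of the median gene on that scale. *Ddit3* was at 9.84, 8.72 and 9.29 CPM against 17.3, 6.98 and 11.3, higher in the highest band in young and control and lower in old, with -0.40 ± 0.21 (SE, adjusted p = 0.0963). Without the young library it was called lower at -0.73, with an adjusted p of 0.00316 by the same test.

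Of the 93 ER genes outside the list, 90 were tested, 33 were higher and 6 lower, with a median of 0.39, against 25.5% and 27.3% of all genes. All 6 that fell were among the 14 stress sensors and targets tested, where 2 rose. *Asns* (asparagine synthetase), a target of Atf4, was at 31.9, 91.8 and 33.2 CPM in the lowest band and at 22.1, 59.0 and 31.7 in the highest, lower in each library, with -1.16 ± 0.10 (SE, adjusted p = 6.33e-09). *Chac1*, which breaks down glutathione and is another Atf4 target, went from 5.25, 5.34 and 5.87 CPM to 2.63, 4.21 and 3.98, with -1.39 ± 0.22 (SE, adjusted p = 2.17e-05). *Sesn2*, a further target, had -2.52 ± 0.34 (SE, adjusted p = 2.68e-06), on 74 UMIs in the lowest band and 30 in the highest over the 3 libraries. *Trib3*, another target, was called lower on 14 UMIs in the lowest band and 6 in the highest, too few for a fold to be given. Of those 14 UMIs, 13 were from old, 1 from young and 0 from control. *Trib3* was listed at 0 in some sums and its call was lost under 4 of the other settings. The direction depends on the scale for part of these genes. On library size alone *Chac1* and *Sesn2* were still called lower (-0.65 and -1.78). *Asns* and *Ppp1r15b* were not called at -0.43 and -0.16, nor was *Trib3*. *Eif2ak3* (Perk itself) was at 0.05 in place of -0.69. *Ppp1r15a* (GADD34), which lets translation resume and is also induced through Atf4, went the other way. It was called higher on 2 UMIs in the lowest band and 56 in the highest over the 3 libraries, too few for a fold to be given. Its CPM was higher in each library, from 0.219, 0.109 and 0 to 1.35, 2.29 and 1.69. *Ern1* (Ire1) rose by 0.77 ± 0.30 (SE, adjusted p = 0.0286). The call of *Ern1* was lost without the young library (0.44, adjusted p = 0.303 by edgeR) and without the old one (0.64, adjusted p = 0.147 by edgeR) and with cells thinned to 3000 UMIs (0.48, adjusted p = 0.373 by edgeR), and that of *Eif2ak3* without the control library (-0.52, under the limit of size).

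**Figure D4:**
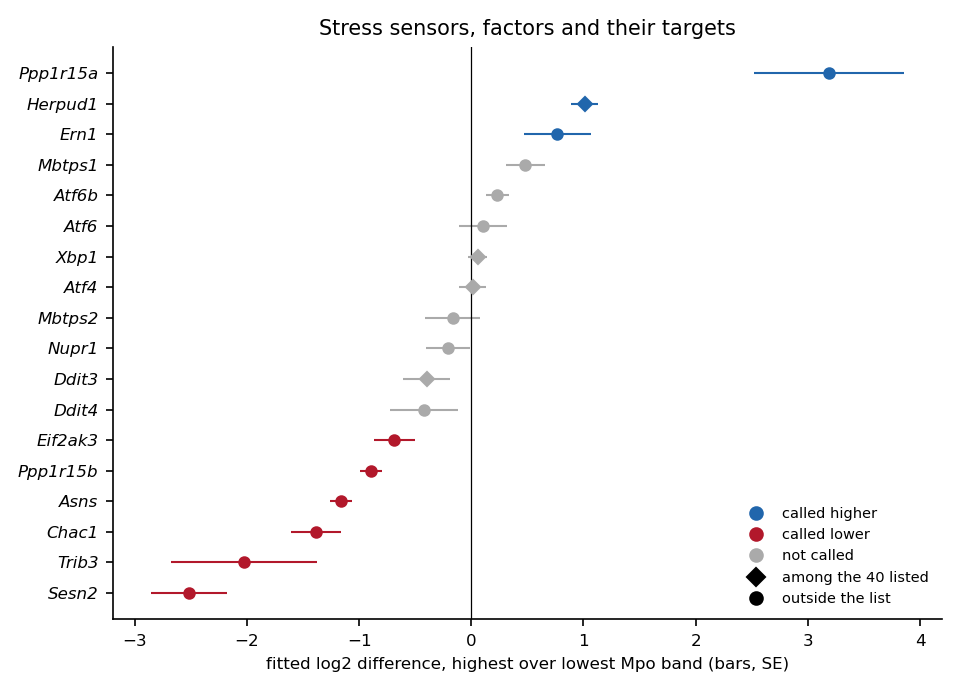
Fitted log2 difference between the highest and the lowest Mpo band on the TMM scale (horizontal axis, bars are SE) for the 4 stress response genes of the list (diamonds) and the 14 stress sensors and targets outside it that were tested (circles). Sesn2, Trib3, Chac1, Asns, Ppp1r15b and Eif2ak3 lie on the lower side, and Herpud1, Ern1 and Ppp1r15a on the higher.

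In the other ER groups outside the list every called gene was higher, where 25.5% of all genes were called higher and 27.3% lower. Among folding genes 8 of 17 were higher, among them *Pdia5*, a disulfide isomerase, on 4 UMIs in the lowest band and 425 in the highest, or 0, 0.436 and 0 CPM against 9.96, 18.1 and 12.7. Among genes of quality control and degradation 7 of 15 were higher, led by *Mogs* (glucosidase I, which trims the first glucose of a new sugar chain) at 2.58 ± 0.28 (SE, adjusted p = 1.85e-07), from 4.81, 1.53 and 1.47 CPM to 25.3, 20.95 and 31.1. Glycosylation had 5 of 9 higher. Exit and retrieval vesicles had 8 of 25 and signal recognition and translocation 3 of 10, both near the 25.5% of all genes. There were 0 lower in each of these 5 groups.

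Steps between neighbouring bands had called members at the upper end only. The bands under 4 lie at a background level of *Mpo*, and part of the 3rd may too. The lower steps therefore cannot show where a rise with *Mpo* begins. From the lowest band to the 2nd, 0 of the 40 were called in either direction (all genes 0.00946% higher and 0.00946% lower), with 0 at an adjusted p under 0.05 and 1, lower, at an unadjusted one (all genes 1.73% higher and 3.04% lower). From the 2nd to the 3rd, 0 were called (all genes 0.662% higher and 0.0662% lower), with 3 at an adjusted p under 0.05 (all genes 1.97% higher and 0.691% lower) and 7, all higher, at an unadjusted one (all genes 9.96% and 7.7%). From the 3rd to the 4th, 17 were higher and 0 lower (all genes 13% and 12.7%). From the 4th to the 5th, 15 were higher and 0 lower (all genes 8.55% and 8.16%). Of the called genes 11 were higher at both of these steps (not counted over all genes), among them *Hspa5*, *Hsp90b1*, *Calr*, *Pdia4*, *Pdia6*, *Sdf2l1*, *Manf* and *Fkbp11*. *Dad1*, *Ddost*, *Kdelr2*, *P4hb*, *Spcs3* and *Ssr4* were called at the first of them alone, and *Dnajc3*, *Herpud1*, *Ostc* and *Spcs2* at the second alone. *Herpud1* had 0.22 at the first and 1.0 at the second on the log2 scale, and *Ssr4* 0.83 and 0.44.

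Other measures moved with the bands. *Elane*, *Prtn3* and *Ctsg*, the serine proteases of the same granules, summed to 1415 to 2229 CPM in the lowest band and 37583 to 39793 in the highest, while the 4 specific granule genes went from 131545 to 165089 CPM down to 18485 to 22712. The 8 cycling markers were at 1324 to 1623 CPM in the lowest band and 1164 to 1409 in the highest. Median mitochondrial shares were 0.81%, 0.80% and 0.97% against 2.74%, 2.57% and 2.70%. With every cell thinned to 3000 UMIs 30 of the 40 were higher, 29 of them shared with the unthinned 30. Of all 8959 genes tested at that setting 2123 were higher and 2379 lower. Plasma cells are known for a large ER, and their 5 markers summed to 3.49 to 12.7 CPM in the lowest band and 3.25 to 9.56 in the highest. *Prdm1* was at 0 in both of these bands in all 3 libraries, and *Jchain* was at 3.27 to 7.58 CPM against 2.77 to 6.35. Monocyte markers (7 genes) summed to 2.93 to 18.8 CPM against 28.9 to 68.2, macrophage markers (6 genes) to 8.94 to 25.6 against 106 to 148, nearly all of it *Vcam1*, and stem and progenitor markers (7 genes) to 2.62 to 15.5 against 18.1 to 43.7. Dendritic cell markers had 11.0 to 136 CPM against 66.6 to 257, and B progenitor markers 2.40 to 19.5 against 21.8 to 44.6. Basophil and mast cell markers had 6.76 to 53.8 against 34.1 to 72.6. Eosinophil, mesenchymal and megakaryocyte lists were lower in the highest band of each library, and erythroid and endothelial lists were mixed. The part of these cell types in the result was not tested. The NK and T cell list (7 genes) went from 131 to 194 CPM to 1954 to 2299, of which *Nkg7* alone gave 1954 to 2287. In the cells set aside as other types the 40 genes summed to between 5406 CPM (macrophages of control) and 21069 CPM, the latter in 175 control cells with erythroid markers, which also had a median of 90.2 *Mpo* UMIs per 10000 and lay above the highest band of control. The groups set aside from young and old held 7004 CPM in B progenitors, 7252 in NK and T cells, 8923 and 11825 in the 2 erythroid groups, 9159 in monocytes and 11008 in dendritic cells. When young was clustered alone, 44 cells with plasma cell markers stood at 22745 CPM, above every *Mpo* band, with a median of 3.27 *Mpo* UMIs per 10000. High levels of these genes were thus also found in cells low in *Mpo*.

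A later wave of granule proteins was also compared. Cells of the lowest *Mpo* band were split in each library into 3 groups of equal size by *Ltf*, *Camp*, *Ngp* and *Lcn2*, the proteins of the specific granules made after the azurophil ones. Of the 40 genes 39 could be tested over the 9 sums, and 0 were called higher and 0 lower by edgeR, against 0.577% and 1.82% of 6414 genes. At an adjusted p under 0.05 with no limit of size there were 9, all higher in the group with the most (all genes 1.98% higher and 3.91% lower), and the median was 0.23 against -0.01 for all genes. *Ostc* had 0.47 ± 0.11 (SE, adjusted p = 0.00216), *Hspa5* 0.41 ± 0.08 (SE, adjusted p = 4.38e-04), *Pdia6* 0.38 ± 0.10 (SE, adjusted p = 0.0145) and *Xbp1* 0.33 ± 0.09 (SE, adjusted p = 0.0123). At an unadjusted p under 0.05 there were 21 higher and 0 lower (all genes 6.89% and 9.21%), and DESeq2 also called 0. *Mpo* itself was not level between these groups, at 0.46 ± 0.14 (SE, adjusted p = 0.0387 by edgeR) higher in the group with the most. *Elane* and *Prtn3* were lower there at -0.51 and -0.44, and *Ctsg* had -0.08. The 3 groups spanned less range than the *Mpo* bands, with medians of 1402, 975 and 1336 UMIs of these genes per 10000 in the lowest group against 1862, 1549 and 1813 in the highest, and differed in depth too, at 6048, 8580 and 5518 UMIs per cell against 9832, 11039 and 8565. Of the ER genes outside the list, *Dnajb9* and *Vimp* were called higher, at 0.80 ± 0.21 (SE, adjusted p = 0.0119) and 0.71 ± 0.11 (SE, adjusted p = 3.13e-06).

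The course of the 40 genes over the 15 sums was shared by others. With the mean of their standardised log2 CPM, *Ssr2*, *Ssr1* and *Calr* had the highest Pearson correlations among the members (0.999, 0.998 and 0.996), and *Ddit3*, *Atf4* and *Xbp1* the lowest (0.27, 0.79 and 0.85). Of 1837 genes outside the list with a mean of at least 50 CPM, the 10 most alike were *AI662270*, *Mydgf* (a growth factor held in the ER and Golgi), *Tmed9*, *Polr2i*, *Tmem258* (an oligosaccharyltransferase subunit), *Pomp*, *Hsbp1*, *Lman2* (a cargo lectin), *Morf4l2* and *Mrpl36*, with r from 0.989 to 0.998. *Mpo* itself had 0.88, *Elane* 0.93, *Prtn3* 0.96 and *Ctsg* 0.97, and 835, 576, 317 and 199 of the 1837 genes stood at or above these values. The sums share libraries and the same scale of total UMIs, so these are descriptions.

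The 3 libraries were compared over all kept cells, within bands and with bands weighted equally. Over all kept cells the 40 genes summed to 6489.8, 6182 and 7574 CPM in young, old and control. Of the 39 with at least 10 CPM in either library, 10 were higher in old than in young (39.9% of all genes), the median log2 ratio was -0.13 (all genes -0.08), 0 were 1.5 times or more higher and 1 lower, against 5.07% and 10.1% of all 5586 genes at that level. With the 5 bands weighted equally 30 of 40 were higher in old (50.2% of all genes), with a median of 0.11, so the direction turned with that weighting. Control and young carry the same labelled age, and control was the higher: 33 of 40 over all cells (48.2% of all genes, median 0.15), 38 of 40 with bands weighted equally, and between 31 of 40 and 39 of 39 within single bands. Over all cells 5 were 1.5 times or more higher in control than in young and 0 lower (all genes 2.5% and 3.77%), namely *Fkbp11*, *Manf*, *Creld2*, *Atf4* and *Xbp1*, named after their values were seen. Against control, old was lower in 38 of 40 over all cells (58.6% of all genes, median -0.32 against -0.08 for all genes) and in 32 of 40 with bands weighted equally (54.5% of all genes), and over all cells 9 were lower by 1.5 times or more and 0 higher (all genes 8.74% and 5.4%). The comparisons share libraries, and each library is 1 preparation, so age, label and preparation cannot be told apart.

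*Hsp90b1* was the 1 gene that passed 1.5 times between old and young with the same direction in all 5 bands. It was at 215, 122 and 255 CPM in young, old and control over all cells. The log2 ratio of old over young was -0.82 (95% interval -0.85 to -0.79), where the interval covers counting error only, and -0.49, -0.41, -0.48, -0.52 and -0.53 from the lowest band to the highest, or -0.51 with the bands weighted equally. No band alone passed 1.5 times. *Hspa5*, its partner, was at 267, 224 and 387 CPM, 0.54, 0.35, 0.21, 0.07 and -0.01 for old over young by band, higher in old in the lower bands and level in the highest. In control over young *Hspa5* had 0.97, 0.81, 0.83, 0.89 and 0.57 by band and *Hsp90b1* 0.47, 0.39, 0.40, 0.60 and 0.29, so control was the highest of the 3 for both.

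*Manf* was at 215, 223 and 349.7 CPM, with control over young at 0.70 (95% interval 0.68 to 0.73). *Atf4* was at 42.5, 51.9 and 67.7 CPM, higher than young in both other libraries, by 0.29 in old and 0.67 in control on the log2 scale, and *Xbp1* at 141, 177 and 214 CPM, by 0.33 and 0.60. Both kept that direction in all 5 bands of either comparison. *Fkbp11* was at 6.46, 7.09 and 16.6 CPM over all cells, where young had the most cells in the highest band and the lowest level in it. By role, the median ratio of control over young with bands weighted equally was 0.65 for the 6 genes around Hspa5, 0.42 for disulfide formation, 0.23 for the Sec61 channel and 0.11 for cargo and retrieval.

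**Figure D5:**
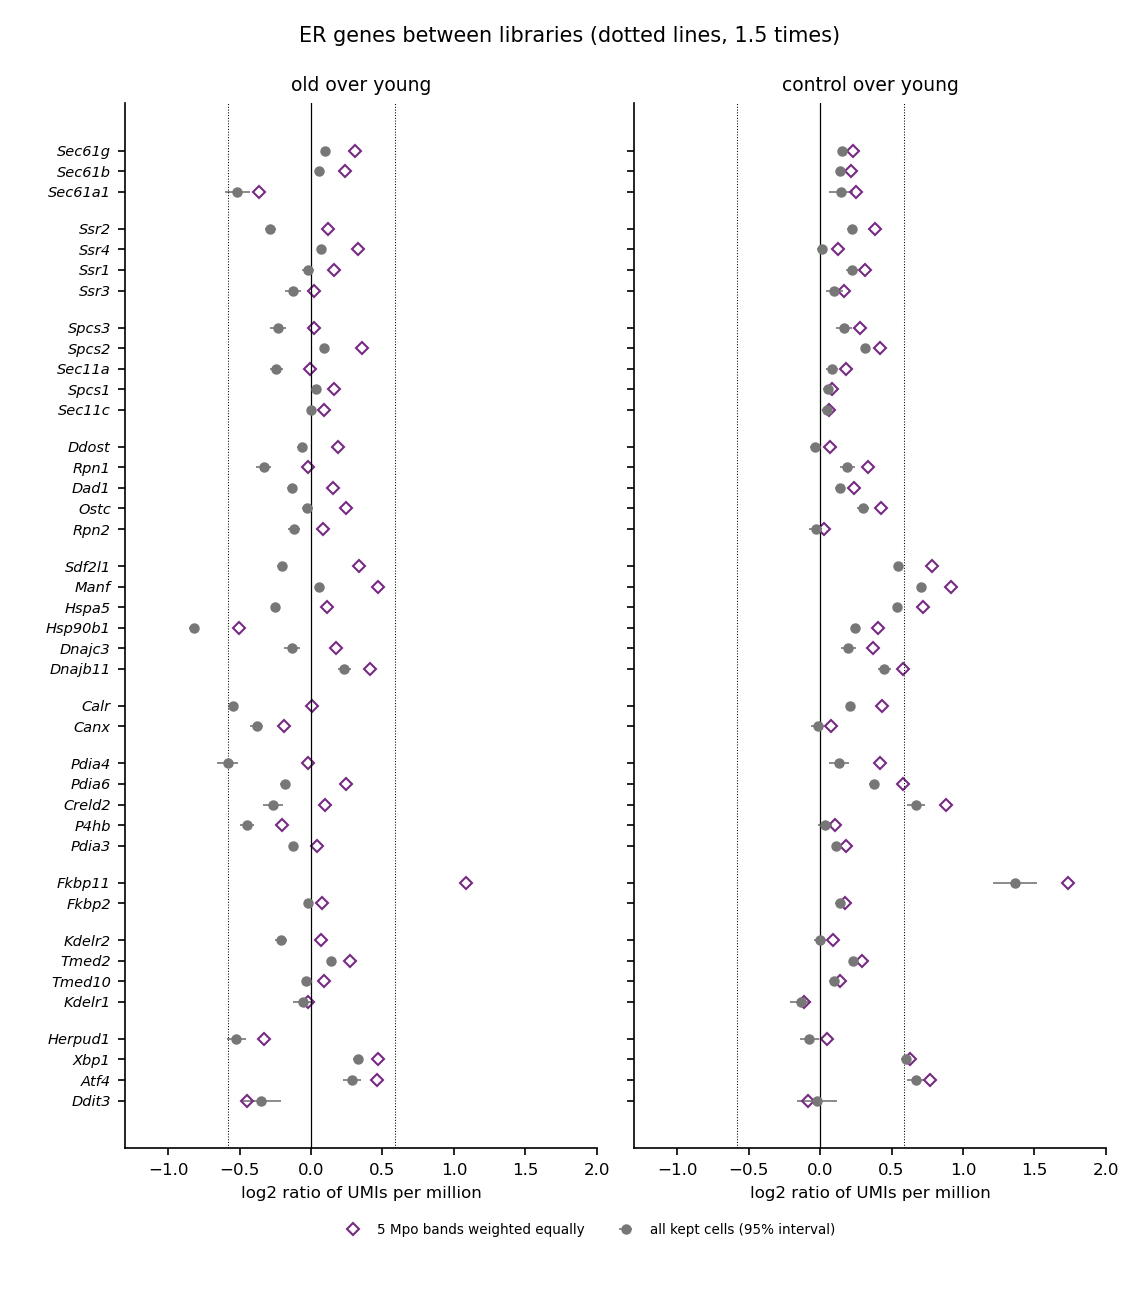
Log2 ratio of CPM (horizontal axis) of old over young (left) and control over young (right) for each gene, ordered as by role: grey circles over all kept cells with their 95% counting intervals, open diamonds with the 5 Mpo bands weighted equally, dotted lines at 1.5 times. Most diamonds lie right of 0 in both panels, and Fkbp11 has no circle on the left because it was under 10 CPM in both libraries.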

How the data were processed

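The deposited files hold UMI counts per gene and cell, which the authors made with STAR and Cell Ranger 2.1.0 on mm10, per the submitters' processing notes. Cells with at least 200 genes, at most 20% mitochondrial counts and UMIs within the 5th to 95th percentiles were kept. Other blood cell types were set aside by Leiden groups (scanpy 1.11.5, Python 3.11.15) named from marker lists; clustering young and old together and control alone, in place of each library alone, was chosen after seeing the data. UMIs were summed by library and Mpo band (15 sums) and fitted with edgeR 4.0.16 (R 4.3.3) on TMM scale with library as a term, all genes adjusted together by Benjamini-Hochberg, after a test on simulated data. Libraries were compared as CPM ratios with exact binomial intervals, which cover counting error only. In each role the genes with the highest and lowest fitted difference, all stress response genes, genes past 1.5 times between old and young in one direction in every band, the 3 highest and 3 lowest ER genes outside the list and the 10 most alike genes were named by rule, and all others after their values were seen. Members and lists were chosen with earlier results of these data known. Alternatives were other scales, filters, bands, DESeq2 1.42.0 and leaving out each library. Positions follow GENCODE M21 (GRCm38), which held 27645 of 27998 identifiers.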

Additional observations from a re-analysis of the deposited data

How the results depend on the processing

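With 1 library per label, no difference between libraries has a replicate check, and the p-values for bands rest on 3 libraries. No paired analysis was possible between labels because each has 1 library. The fit over bands holds the library as a block, and without that term 30 of the 40 were higher, all 30 shared with the fit that has it. Of all 10567 genes 2436 were then higher and 2482 lower. The count of the 40 genes higher in the highest Mpo band stayed within 1.5 times of 30 under every setting tried. Their median difference (1.02) was 1.76 with library size alone, 1.51 with band limits doubled, 0.869 with 5 equal groups by Mpo and 0.863 with 5 by Elane, Prtn3 and Ctsg. Leaving out a library gave medians of 0.943 to 1.11 and 0 to 1 genes lower, the 1 being Ddit3 without young. Kdelr1 turned to 0.596 with library size alone, where 72 of the 90 tested ER genes outside the list were higher and 2 lower (all genes 52.4% and 10.5%). With a limit of 2 times 17 of those 90 were higher and 4 lower, against 1881 and 1809 of all 10567 genes. The higher share was then close to that of all genes. For old over young, the median (-0.127) turned to 0.106 with bands weighted equally, 0.042 with TMM factors and 0.142 as UMIs per cell, and was -0.056 without trimming. Of its counts, equal bands and UMIs per cell each gave 1 higher and 0 lower, the 2-times limit 0 lower, other cell types kept 5 lower, and both thinning and leaving out the highest Scrublet scores 2 lower. Finding other cells in each library alone gave 10 lower with a median of -0.295, and for old over control 15 lower with -0.425. In old it set aside 683 cells with basophil and mast cell markers, at a median of 74.0 Mpo UMIs per 10000. It also set aside 1633 old cells with erythroid markers, at a median of 2.47. For control over young the median (0.148) was 0.262 with equal bands, 0.092 as UMIs per cell and 0.227 without trimming, and the 2-times limit left 1 higher and thinning 3. For old over control, equal bands gave 5 lower and -0.182, UMIs per cell 3 lower and 0, the 2-times limit 2 lower and TMM factors a median of -0.209. The cause of these shifts was not tested.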
